A study of Mus musculus with 6 samples.

Results

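Glycolysis, the pathway that turns glucose into pyruvate and lactate in the cytosol of every cell, was followed here through 10 of its enzyme genes (Hk1, Hk2, Gpi1, Pfkl, Pfkp, Pfkm, Aldoa, Gapdh, Pkm and Ldha), taken by symbol from a table of nascent transcription in mouse muscle stem cells (MuSCs). All 10 symbols were among the 14546 genes listed, and they filled 11 entries, because Aldoa stood for 2 loci on chromosome 7: the main gene (ENSMUSG00000030695) and a locus upstream of it on the same strand (ENSMUSG00000114515), called the Aldoa upstream locus below. The assay was PRO-seq, a nuclear run-on in which engaged RNA polymerase II is mapped by sequencing the ends of growing transcripts, so that values report polymerase on the gene and not stored mRNA. It was run on 6 libraries of MuSCs, the resident progenitors of skeletal muscle, grown in culture and proliferating.

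The 3 control libraries (Ctrl) are labelled Pax7CreERT/Suv4-20h1WT and the 3 knockout libraries (Kmt5b sKO) Pax7CreERT/Suv4-20h1KO. Suv4-20h1 is another name of Kmt5b, the methyltransferase that converts monomethylated lysine 20 of histone H4 to the dimethylated form. Both groups therefore carry the same Pax7-driven, tamoxifen-inducible Cre, which acts in Pax7-positive cells, and differ in the labelled state of Kmt5b. According to the methods, mice of C57BL/6 background and of both sexes were used at 8 to 12 weeks, and MuSCs were purified with magnetic beads before culture. The libraries are described as biological replicates, with no note on which animals each came from. Gene body values of Kmt5b itself were 30.6 to 38.5 TPM in the libraries labelled Ctrl and 34.99 to 42.6 TPM in those labelled Kmt5b sKO, with overlap, and its TSS values were 87.3 to 102 RPM and 107 to 120.0 RPM, without overlap and higher in Kmt5b sKO (not called). The 2 regions together run over the whole gene and do not resolve the deleted part, so they do not check the genotype, which rests on the labels.

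The pathway begins with the hexokinases, which trap glucose in the cell by phosphorylation, and commits it to breakdown at phosphofructokinase, the main point of control. Aldolase then splits the hexose, glyceraldehyde-3-phosphate dehydrogenase and the enzymes after it extract energy, and pyruvate kinase and lactate dehydrogenase complete the route to lactate. Most steps are shared by isozymes with different tissue preferences, and quiescent muscle stem cells are known to raise glycolysis when they are activated and divide.

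Each gene carried 2 values per library. The TSS value is the number of sense reads in the first 400 nt of 1 chosen transcript, scaled by 1 factor per library. It is called RPM here, and the read total behind that factor is not stated. The gene body value covers the rest of that transcript and is scaled for length (TPM). Both are relative to the reads of their own library, and the methods name no spike-in for PRO-seq. A change in transcription shared by all genes would therefore not show in them. Each region has its own scale, so a shift between the regions shared by all genes might not show in their ratio either. The pausing index is the TSS value divided by the gene body value and tracks how much polymerase sits near the start relative to the gene. Depth, recovered from the step between low values, was 926904 to 3246034 TSS reads and 7425419 to 16249246 gene body reads per library over all listed genes, with Kmt5b sKO replicate 2 the lowest in both regions. The genes lie on chromosomes 6 (Hk2, Gapdh), 7 (Gpi1, Ldha, Aldoa), 9 (Pkm), 10 (Hk1, Pfkl), 13 (Pfkp) and 15 (Pfkm), and the gene body regions ran from 3519 nt in Gapdh, of which 34.0% was exonic, to 71287 nt in Hk1, of which 5.44% was. The 11 entries together held 0.174% to 0.295% of all listed gene body values. Differences were tested with limma on log2(value + 0.5) over 12451 genes outside chromosomes X and Y whose mean reached 0.5 in each region, and genes with a Benjamini-Hochberg adjusted p under 0.1 are referred to as called. All 11 entries passed that filter.

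The TSS value counts polymerase just downstream of a promoter, so promoter sequences are shown for the 3 phosphofructokinase genes, on which the results below turn, and for Ldha, a classic hypoxia target with the most motif matches of the windows found. Windows run from 250 nt before to 50 nt after the RefSeq start on GRCm38.p6. A RefSeq start within 100 nt of the listed one was found for 9 of the 11 entries, the exceptions being Hk1 and the Aldoa upstream locus. Capitals mark matches on either strand to ACGTG or GCGTG, core letters of the hypoxia response element. The E-box CACGTG contains ACGTG on both strands and is counted there too.
Pfkm, chr15:98108221-98108520, plus strand: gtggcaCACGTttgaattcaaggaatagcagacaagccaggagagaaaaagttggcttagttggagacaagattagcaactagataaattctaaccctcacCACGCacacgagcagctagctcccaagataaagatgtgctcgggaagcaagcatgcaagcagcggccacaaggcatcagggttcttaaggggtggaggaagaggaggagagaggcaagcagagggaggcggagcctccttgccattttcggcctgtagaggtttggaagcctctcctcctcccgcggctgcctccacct
Pfkl, chr10:78009758-78010057, minus strand: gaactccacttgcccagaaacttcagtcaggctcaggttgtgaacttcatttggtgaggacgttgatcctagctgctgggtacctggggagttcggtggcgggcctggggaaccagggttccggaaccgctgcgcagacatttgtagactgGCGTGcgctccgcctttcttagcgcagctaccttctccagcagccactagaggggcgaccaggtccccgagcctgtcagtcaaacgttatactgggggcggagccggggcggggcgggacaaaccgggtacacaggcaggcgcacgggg
Pfkp, chr13:6648722-6649021, minus strand: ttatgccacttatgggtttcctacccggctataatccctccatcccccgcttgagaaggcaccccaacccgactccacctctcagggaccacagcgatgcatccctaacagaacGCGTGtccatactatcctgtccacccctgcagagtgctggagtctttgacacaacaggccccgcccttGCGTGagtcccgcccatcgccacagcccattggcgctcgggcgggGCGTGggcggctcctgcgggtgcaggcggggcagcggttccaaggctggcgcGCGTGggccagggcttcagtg
Ldha, chr7:46845554-46845853, plus strand: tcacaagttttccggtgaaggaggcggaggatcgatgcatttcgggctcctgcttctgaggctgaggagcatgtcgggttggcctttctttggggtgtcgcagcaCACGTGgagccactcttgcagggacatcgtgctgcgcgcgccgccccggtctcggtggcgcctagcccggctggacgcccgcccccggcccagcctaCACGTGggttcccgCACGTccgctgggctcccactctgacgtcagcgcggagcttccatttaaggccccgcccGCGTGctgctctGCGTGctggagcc
The Ldha window held 5 matches to ACGTG, 2 to GCGTG and 2 to CACGTG. Pfkp held 4 to GCGTG, Pfkm 1 to each core and Pfkl 1 to GCGTG. Of the 9 matched windows, 7 held ACGTG or GCGTG, against 44.0% of all 32544 RefSeq promoters of the same length. CACGTG was present in 1 of 9, against 7.17%. None of the 9 held TATAAA, which 13.6% of all promoters did. All 9 lay above the all-promoter median of 0.387 in the ratio of observed to expected CpG, from 0.421 in Pfkm, with 9 CpG in its window, to 0.882 in Ldha, with 30. These are letter matches only, and no binding was measured.

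The genes differed widely in how much polymerase they carried, with Gapdh, Pkm, Aldoa and Ldha far above the hexokinases and phosphofructokinases. In gene body values Gapdh, the dehydrogenase step and a common reference gene, averaged 558 TPM ± 65.4 (SD, n = 6) and ranked 50 of 12451. Pkm, pyruvate kinase, followed at 222 ± 23.5, Aldoa, the muscle-type aldolase, at 187 ± 64.0 and Ldha, the lactate dehydrogenase subunit that favours lactate formation, at 138 ± 28.9. Gpi1, glucose-6-phosphate isomerase, averaged 56.9 ± 12.8, the Aldoa upstream locus 41.6 ± 11.4 and Pfkm, the muscle phosphofructokinase, 31.5 ± 13.3. The remaining 4 genes lay just below the median of 15.8 TPM over tested genes: Pfkl, the liver isozyme, at 14.4 ± 4.78, the broadly expressed hexokinase Hk1 at 14.4 ± 2.88, Pfkp, the platelet isozyme, at 12.3 ± 2.86 and the inducible hexokinase Hk2 at 11.95 ± 3.38.

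Neighbours in that order kept it in 6 of 6 libraries for Gapdh over Pkm, Ldha over Gpi1, Gpi1 over the Aldoa upstream locus and the latter over Pfkm. Pkm over Aldoa, Aldoa over Ldha, Pfkm over Pfkl and Hk1 over Pfkp held in 5 of 6, Pfkp over Hk2 in 4 and Pfkl over Hk1 in 3, so the 4 lowest genes cannot be ordered beyond their spread. The level of Gapdh carries a limit of its own, since 1 random place was kept for reads with several matches and the genome holds 135 stretches of at least 200 nt that match its transcript at 90% identity or more. Ldha has 8 such copies, Aldoa 5, Pkm 3 and Gpi1 1, and none were found for the hexokinases, the phosphofructokinases or the Aldoa upstream locus.

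**Figure D1:**
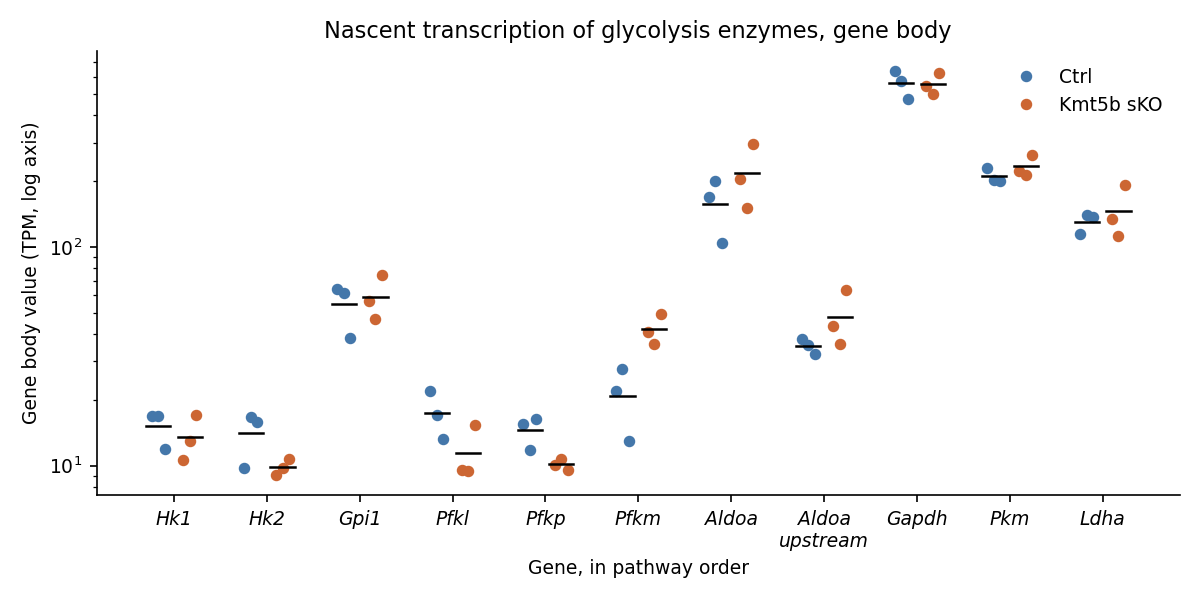
Gene body value (TPM, log axis) of each glycolysis gene in each library, in pathway order, with Ctrl in blue, Kmt5b sKO in orange and black bars for the group means (n = 3). Gapdh, Pkm, Aldoa and Ldha lie highest, and Pfkm and Pfkp are the genes whose groups do not overlap.

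None of the 11 entries was called in any measure. In TSS values 0 of 11 passed, where 1.66% of all tested genes did, and 2 of 11 (Pfkm and the Aldoa upstream locus) had an unadjusted p under 0.05, against 11.0% of all genes. Groups did not overlap in 1 of 11 (Gapdh, higher in Kmt5b sKO), against 15.6%. In gene body values 0 of 11 passed, against 2.99%, 3 of 11 (Pfkm, Pfkp and Pfkl) had an unadjusted p under 0.05, against 15.9%, and groups did not overlap in 2 of 11 (Pfkm and Pfkp), against 21.4%. The median log2 fold change of the 11 entries, Kmt5b sKO over Ctrl on the log2(value + 0.5) scale, was -0.14 in TSS values, where that of all genes was 0.08, and 0.13 in gene body values, where it was 0.02. Counts of this size among 11 entries lie close to those shares. Relative to their libraries, members lay on either side of no change, 5 higher and 6 lower in TSS values and 6 higher and 5 lower in gene body values.

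At the first step, the hexokinases leaned lower in gene body values without passing the test. Hk2 gene body values were 9.73, 16.6 and 15.9 TPM in the Ctrl libraries, against 9.05, 9.72 and 10.7 TPM in those of Kmt5b sKO. The knockout libraries lay close together at the level of the lowest control, so the groups overlapped, and the log2 fold change was -0.46 (SE 0.22, limma adjusted p = 0.37). Hk2 TSS values were scattered in Ctrl, at 27.6, 59.8 and 85.4 RPM, against 56.0, 35 and 35.4 RPM in Kmt5b sKO, and their log2 fold change of -0.34 became 0.02 without Ctrl replicate 3. For Hk1, gene body values were 16.8, 16.9 and 11.9 TPM in the Ctrl libraries, against 10.7, 12.98 and 17.1 TPM in those of Kmt5b sKO, an almost complete overlap, with a log2 fold change of -0.17 (SE 0.22, adjusted p = 0.78). Hk2 made up 47.8% ± 10.3 (SD, n = 3) of the summed hexokinase gene body value in Ctrl and 42.4% ± 3.73 in Kmt5b sKO, again with overlap. Hk1 has an annotated start 39366 nt upstream of the one used, and polymerase from there would count towards its gene body.

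Gpi1, which converts the product of hexokinase to fructose-6-phosphate, showed overlapping groups in both regions. Its gene body values were 63.9, 61.3 and 38.4 TPM in the Ctrl libraries, against 56.4, 46.8 and 74.5 TPM in those of Kmt5b sKO, and the 95% interval of its log2 fold change ran from -0.45 to 0.70. Its 3 control TSS values stood within a narrow band, at 57.1, 60.3 and 60.05 RPM, and those of the knockout on both sides of it, at 64.2, 52.2 and 85.1 RPM.

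The phosphofructokinase step held the largest gene body differences of the 10 genes in either direction, although none passed the test. Gene body values of Pfkm, the isozyme that predominates in skeletal muscle, were 22.0, 27.5 and 12.9 TPM in the Ctrl libraries, against 41.0, 35.8 and 49.5 TPM in those of Kmt5b sKO. Every knockout library lay above every control, and the mean was 20.8 ± 7.38 TPM in Ctrl and 42.1 ± 6.90 TPM in Kmt5b sKO (SD, n = 3 per group), a ratio of 2.02. The log2 fold change was 1.05 (SE 0.27, 95% interval 0.41 to 1.69), with an unadjusted p of 0.0057 and an adjusted p of 0.13 in limma, short of the threshold. The call depended on the method. On the recovered reads edgeR gave an adjusted p of 0.062, where it called 6.01% of all genes, and DESeq2 one of 0.0027, where it called 10.4%. With limma the adjusted p was 0.077 once libraries were centred on their medians (4.03% of all genes called), 0.098 without Ctrl replicate 2 (2.10%) and 0.085 without Ctrl replicate 3 (6.71%). It rose to 0.27 without Ctrl replicate 1 and to 0.29, 0.21 and 0.37 without Kmt5b sKO replicates 1, 2 and 3.

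In the TSS region of Pfkm, values were 8.23, 14.9 and 5.49 RPM in the Ctrl libraries, against 28.2, 13.2 and 22.1 RPM in those of Kmt5b sKO. Kmt5b sKO replicate 2 fell below Ctrl replicate 2, so these groups overlapped, and the counts behind them were only 20 to 86 reads per library. The log2 fold change was 1.15 (SE 0.39, adjusted p = 0.20), and Pfkm was called at 1.52 (adjusted p = 0.052) without Ctrl replicate 2, where 3.28% of all genes were called. An annotated Pfkm start lies 15882 nt upstream of the one used, so polymerase that starts there enters the values only as it passes through.

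Pfkp and Pfkl, the isozymes prominent outside muscle, had the opposite sign. Pfkp gene body values were 15.5, 11.8 and 16.3 TPM in the Ctrl libraries, against 10.1, 10.7 and 9.58 TPM in those of Kmt5b sKO. All 3 knockout libraries lay below all 3 controls, with a log2 fold change of -0.49 (SE 0.16, adjusted p = 0.21) that DESeq2 alone called (-0.56, adjusted p = 0.063). Pfkl gene body values were 21.9, 17.1 and 13.3 TPM in the Ctrl libraries, against 9.53, 9.45 and 15.4 TPM in those of Kmt5b sKO. Kmt5b sKO replicate 3 lay above Ctrl replicate 3, and the log2 fold change was -0.59 (SE 0.25, adjusted p = 0.31). Their TSS values overlapped, at 20.1 to 38.2 RPM in Ctrl and 8.74 to 26.2 RPM in Kmt5b sKO for Pfkp and 57.5 to 97.8 against 46.5 to 80.5 RPM for Pfkl.

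Within each library the 3 genes can be set against their own sum, a share that does not depend on how libraries are scaled. Pfkm made up 37.0%, 48.8% and 30.4% of the summed phosphofructokinase gene body value in Ctrl and 67.6%, 64.0% and 66.5% in Kmt5b sKO. Pfkm led in every knockout library. In Ctrl it led in replicate 2, was nearly level with Pfkl in replicate 1 (37.0% and 36.9%), and Pfkp led in replicate 3. The mean Pfkm shares of 38.7% ± 9.33 in Ctrl and 66.0% ± 1.84 in Kmt5b sKO were 27.3 percentage points apart. Pfkl made up 32.8% ± 3.55 in Ctrl and 17.7% ± 2.57 in Kmt5b sKO and Pfkp 28.4% ± 8.93 and 16.2% ± 3.14, both without overlap. As the 3 shares make up the whole, a higher Pfkm share by itself lowers those of the others. The gene body values of Pfkl themselves overlapped. The sum itself was 52.8 ± 9.04 TPM in Ctrl and 63.7 ± 9.61 TPM in Kmt5b sKO, with overlapping groups. In TSS values Pfkl led in all 6 libraries, and the Pfkm share was 9.34% ± 5.90 in Ctrl and 21.2% ± 6.14 in Kmt5b sKO, with overlap. These shares are a description, and no test was made of them.

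**Figure D2:**
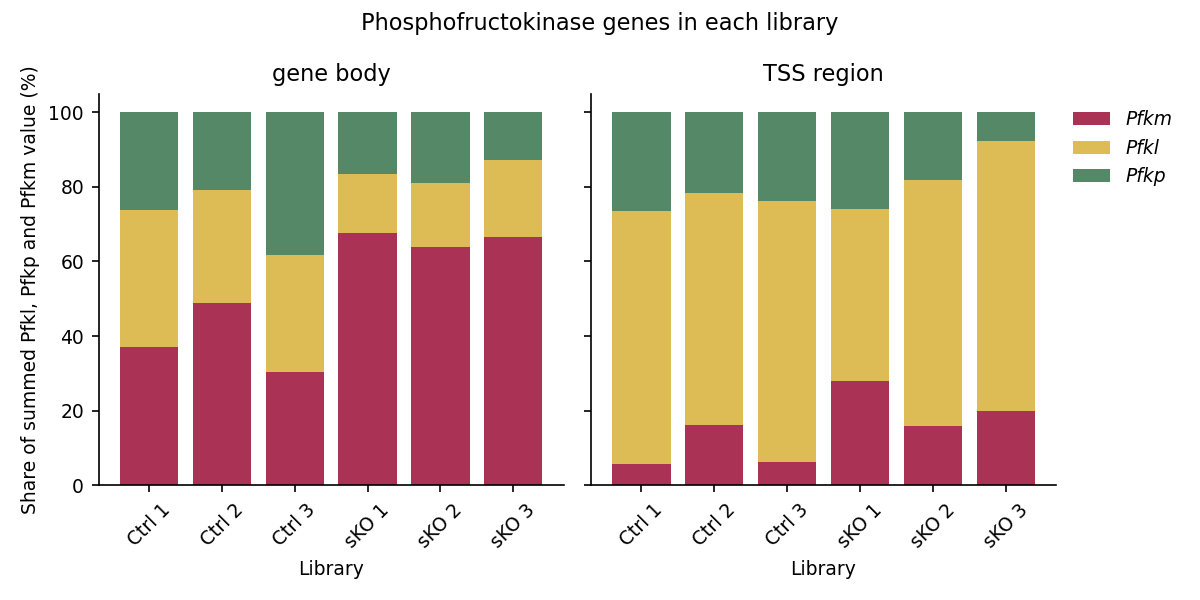
Share of Pfkm, Pfkl and Pfkp (%) in their summed value in each library, for gene body values (left) and TSS values (right). Pfkm holds 64.0% to 67.6% of the gene body sum in the Kmt5b sKO libraries and 30.4% to 48.8% in the Ctrl libraries, while Pfkl leads in the TSS region throughout.

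Markers of mature muscle fibres, cells in which Pfkm is the usual isozyme, moved with the groups in the same libraries. The list has 16 genes, all listed, and their summed gene body value was 1082 to 2156 TPM in Ctrl and 2536 to 3935 TPM in Kmt5b sKO. All 13 that were tested had a positive log2 fold change in both regions. In gene body values the median was 0.86 and 0 were called, against 2.99% of all genes. There 9 had an unadjusted p under 0.05, against 15.9%, and groups did not overlap in 8, all higher, against 21.4%. In TSS values the median was 1.04 and 2 (Casq1 and Ryr1, calcium handling genes of the fibre) were called higher, against 1.66%. There 11 had an unadjusted p under 0.05, against 11.0%, and groups did not overlap in 6, all higher, against 15.6%. The part of the fibre markers in the Pfkm values was not tested. In bulk libraries a change in the number of cells of 1 kind and a change in transcription per cell cannot be told apart. Muscle stem cell markers, 12 of 12 listed, summed to 2127 to 2871 TPM in Ctrl and 2631 to 3396 TPM in Kmt5b sKO, with 0 of 12 called in either region (limma, at most 1 at an unadjusted p under 0.05).

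Summed gene body values of fibro-adipogenic markers (5 of 8 listed) were 46.8 to 72.4 TPM in Ctrl and 51.3 to 56.0 TPM in Kmt5b sKO, and those of endothelial markers (4 of 8 listed) 10.8 to 17.2 and 12.4 to 13.4 TPM. Immune markers had 3 of 8 listed, Ptprc not among them, and their sum of 219 to 423 TPM was almost wholly Cd68, a lysosomal gene, with overlapping ranges. Schwann cell markers, 8 of 8 listed, summed to 42.7 to 69.8 TPM in Ctrl and 88.6 to 95.3 TPM in Kmt5b sKO, and Sox10, a neural crest factor, was called higher in gene body values. Their part in the results was not tested.

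At the aldolase step, gene body and TSS values of Aldoa leaned in opposite directions, neither past the test. Gene body values were 169, 199.95 and 104 TPM in the Ctrl libraries, against 205, 151 and 294 TPM in those of Kmt5b sKO. The ranges overlapped, with Ctrl replicate 3 lowest and Kmt5b sKO replicate 3 highest, and the log2 fold change was 0.46 (SE 0.31, adjusted p = 0.56). It was 0.19 without Ctrl replicate 3 and 0.21 without Kmt5b sKO replicate 3. TSS values of 192, 239 and 224 RPM in Ctrl stood beside 163, 151 and 233 RPM in Kmt5b sKO, a log2 fold change of -0.28 (SE 0.22, adjusted p = 0.73). Aldoa held 92.6% ± 2.598 of the summed gene body value of Aldoa and Aldoc, the brain-type aldolase, in Ctrl and 96.0% ± 2.25 in Kmt5b sKO.

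The Aldoa upstream locus, which spans chr7:126800881-126808875 on the minus strand of GRCm38 and overlaps Fam57b on the other strand, had gene body values of 38.1, 35.6 and 32.3 TPM in the Ctrl libraries, against 43.7, 36.0 and 63.6 TPM in those of Kmt5b sKO. Its TSS region held almost no reads, 10 to 26 per library in Ctrl and 2 to 5 in Kmt5b sKO. The TSS log2 fold change of -1.22 (SE 0.55, adjusted p = 0.40) rests on those few reads.

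In the lower pathway Gapdh, Pkm and Ldha had gene body log2 fold changes between -0.01 and 0.14. Gapdh gene body values were 637, 571 and 474 TPM in the Ctrl libraries, against 545, 499 and 623 TPM in those of Kmt5b sKO, and the 2 ranges covered each other almost completely. The log2 fold change was -0.01 (SE 0.19, 95% interval -0.45 to 0.44), with an adjusted p of 0.99. In the TSS region all 3 knockout libraries of Gapdh, at 499.9, 401 and 401 RPM, lay above all 3 controls, at 377, 354 and 389.6 RPM, with a log2 fold change of 0.21 (SE 0.22, adjusted p = 0.82).

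Pkm had the narrowest interval of the 11 entries in gene body values. Its values were 229, 203 and 199 TPM in the Ctrl libraries, against 223, 213 and 264 TPM in those of Kmt5b sKO, resting on 3100 to 7452 reads, and the interval of its log2 fold change ran from -0.20 to 0.49. Ldha gene body values were 114, 139 and 137 TPM in the Ctrl libraries, against 134, 112 and 192 TPM in those of Kmt5b sKO. Kmt5b sKO replicate 3 stood above the other 5 libraries, which shared 1 range, and the log2 fold change was 0.13 (SE 0.21, adjusted p = 0.83). Ldha held 97.2% ± 0.792 of the summed gene body value of Ldha and Ldhb in Ctrl and 97.7% ± 0.451 in Kmt5b sKO, so the lactate dehydrogenase genes kept the same leading isozyme in all libraries.

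**Figure D3:**
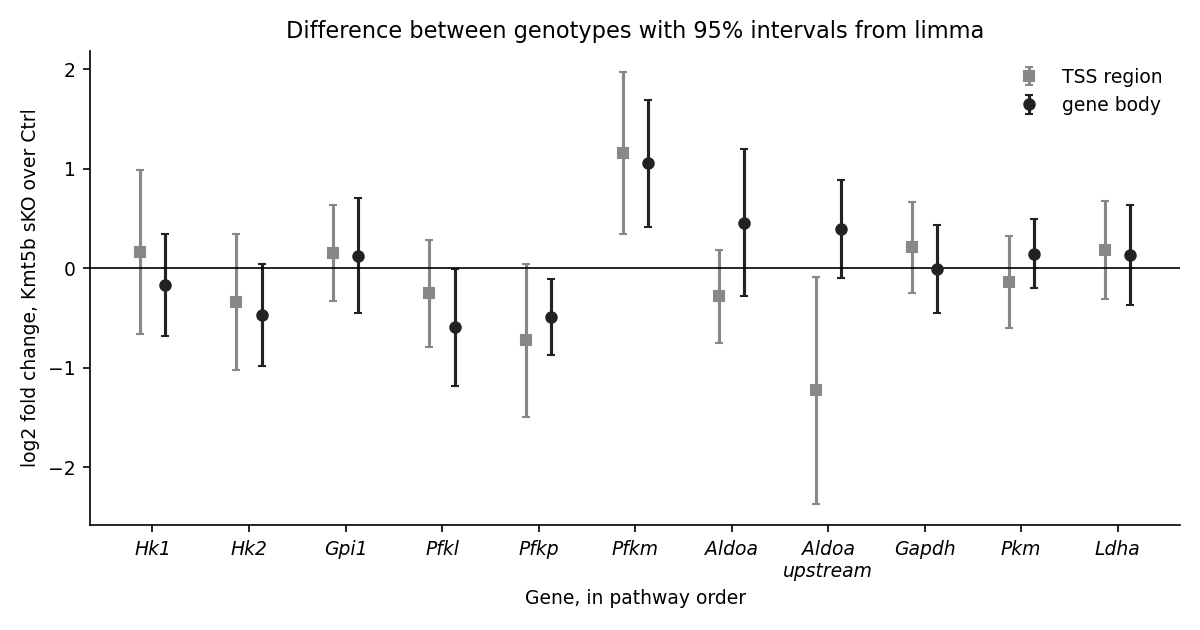
Log2 fold change of each glycolysis gene, Kmt5b sKO over Ctrl on the log2(value + 0.5) scale, in TSS values (grey squares) and gene body values (black circles), with 95% intervals from limma (n = 3 per group). Pfkm stands at 1.15 and 1.05, and Pfkp and Pfkl are below 0 in both regions.

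The pausing index set the genes apart more than the genotype did. Pfkl, at a geometric mean of 4.67 over the 6 libraries, and Hk2, at 3.99, had the most polymerase near the start for their gene bodies. By that mean they ranked 952 and 1345 of 11698 genes. Ldha (1.72), Pfkp (1.63), Pkm (1.36), Gpi1 (1.12) and Aldoa (1.11) ranked from 5171 to 7550. Gapdh (0.724), Hk1 (0.635) and Pfkm (0.462) ranked from 9362 to 10448, and the Aldoa upstream locus (0.065) ranked 11640. Ldha over Pfkp, Hk2 below Pfkl and Aldoa below Gpi1 held in only 3 of 6 libraries, while Hk2 lay above Ldha in all 6. Among the phosphofructokinase genes Pfkl thus stood highest and Pfkm lowest, although the start used for Pfkm misses polymerase near the upstream one. The same limit holds for Ldha, Aldoa and Gapdh, with annotated starts up to 4364, 1497 and 694 nt upstream of the one used.

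Between genotypes, 0 of 11 entries were called in the pausing index, as were 0 of 11698 genes (0%), and 2 of 11 (both Aldoa loci) had an unadjusted p under 0.05, against 3.86% of all genes. Groups did not overlap in 4 of 11, against 9.02%: Pfkl was higher in Kmt5b sKO, and Aldoa, its upstream locus and Pkm were lower. The index of the upstream locus, part of both counts, rests on 4, 2 and 5 TSS reads in the Kmt5b sKO libraries. The Aldoa index was 1.14, 1.195 and 2.16 in the Ctrl libraries, against 0.794, 0.997 and 0.792 in those of Kmt5b sKO. Ctrl replicate 3 lay far above the rest, and the difference of -0.74 on the log2 scale (SE 0.31) had an adjusted p of 0.99974 in limma. For Pfkl the index was 4.46, 3.36 and 4.67 in the Ctrl libraries, against 4.88, 5.80 and 5.24 in those of Kmt5b sKO, a log2 difference of 0.36 (SE 0.23) at the same adjusted p. Pfkm, with the widest gene body difference, had an index of 0.374, 0.543 and 0.425 in the Ctrl libraries, against 0.687, 0.369 and 0.446 in those of Kmt5b sKO, with the highest and the lowest value both in the knockout.

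**Figure D4:**
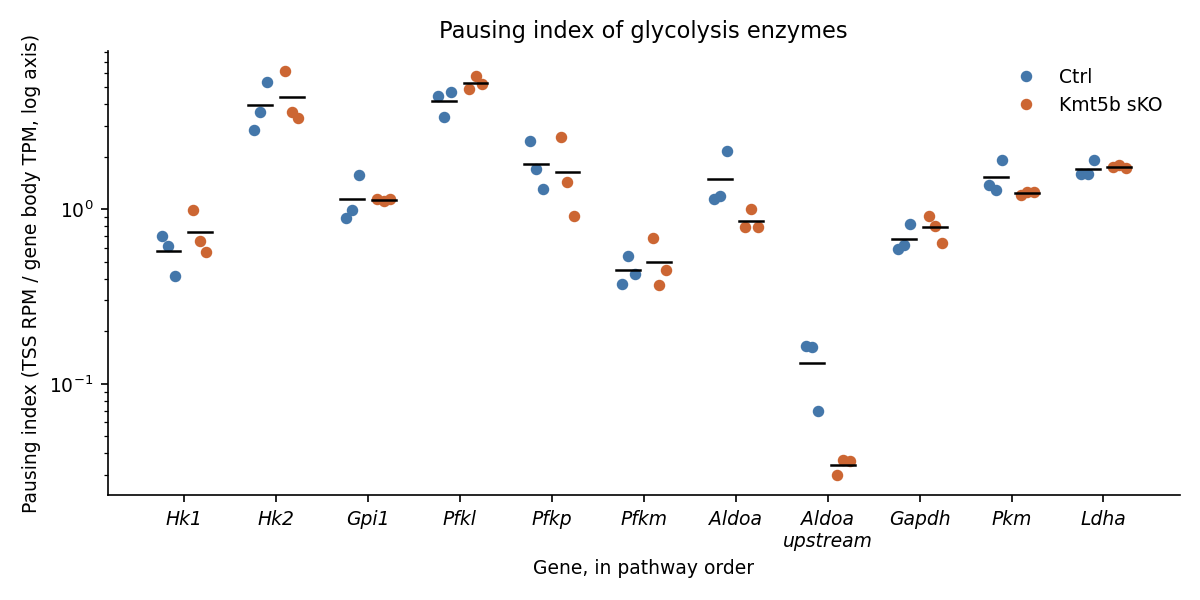
Pausing index (TSS RPM over gene body TPM, log axis) of each glycolysis gene in each library, with Ctrl in blue, Kmt5b sKO in orange and black bars for the group means (n = 3). Pfkl and Hk2 lie highest and the Aldoa upstream locus lowest, and the Aldoa values of all Kmt5b sKO libraries lie below those of Ctrl.

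Among other enzymes of glycolysis, Eno3 and Pgam2 were called. Of 21 listed by name, 15 were in the table and 12 were tested, with 2 called higher in TSS values, against 1.66% of all genes, 1 called higher in gene body values, against 2.99%, and none lower. The difference between these counts and the 0 of 11 above was not tested. Eno3, the muscle enolase, rose in both, with gene body values of 154, 166 and 179 TPM in the Ctrl libraries, against 301, 244 and 394 TPM in those of Kmt5b sKO. The groups were well apart, at a log2 fold change of 0.88 (SE 0.20, adjusted p = 0.098), and in TSS values it was 1.02 (SE 0.26, adjusted p = 0.079). Pgam2, the muscle phosphoglycerate mutase, rose in TSS values by 1.15 (SE 0.31, adjusted p = 0.087), from 28.0 ± 10.005 to 62.5 ± 24.0 RPM, and its gene body log2 fold change of 1.37 (SE 0.53) missed the threshold at an adjusted p of 0.28. The ubiquitous enolase Eno1 and triosephosphate isomerase Tpi1 had gene body log2 fold changes of 0.13 and 0.20 (adjusted p = 0.81 and 0.84).

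Both called genes are the muscle forms of their enzymes, as is Pfkm, which was not called in the main limma test. Aldoa, the muscle-type aldolase, was not called either, with log2 fold changes of 0.46 in gene body values and -0.28 in TSS values. The fibre marker values given above apply to Eno3 and Pgam2 too: their part was not tested. The calls of Eno3 and Pgam2 were easily lost. At a pseudocount of 0.1 Pgam2 in TSS values and Eno3 in gene body values were no longer called. Without the filter on low values neither region had a call in the list, and without the trend, TSS values had 0. With centred libraries 1 call was left in TSS values, that of Pgam2. In gene body values Eno3 was called without Ctrl replicate 3 and not without any other single library, and the list had 0 calls in TSS values without Ctrl replicate 1, Kmt5b sKO replicate 1 or Kmt5b sKO replicate 3.

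Among the pathways around glycolysis, 1 more gene was called. Gyg, glycogenin, the primer of glycogen synthesis, rose in gene body values from 9.12, 9.95 and 6.80 TPM in Ctrl to 16.3, 14.1 and 20.6 TPM in Kmt5b sKO. Its log2 fold change was 0.94 (SE 0.20, adjusted p = 0.087), and the glycogen list, with 12 of 15 genes tested, had a gene body median of 0.05. The call was lost without the filter on low values and without any single library other than Ctrl replicate 3. In TSS values the list had 0 calls in limma, against 1.66% of all genes, and a median of 0.26. In that region 4 of 12 had an unadjusted p under 0.05, against 11.0% of all genes. Groups did not overlap in 3 that were higher and 1 that was lower, against 15.6%. In the same list the synthase Gys1 and the muscle phosphorylase Pygm had log2 fold changes of 0.00 and 0.72, neither called.

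In limma, 0 genes were called in either region in the other lists, with 0 to 2 of each list at an unadjusted p under 0.05. Glucose and lactate transport (7 of 9 tested, 0 at an unadjusted p under 0.05 in gene body values) had a gene body median of -0.12, with the transporter chaperone Bsg at 0.43 and the carriers Slc16a1 and Slc2a1 at -0.13 and -0.19. Control of glycolytic flux (16 of 20 tested, 0 under 0.05) had a median of 0.02, with the pyruvate dehydrogenase kinase Pdk4 at 0.07 and Txnip, a brake on glucose uptake, at -0.72. The pentose phosphate pathway (7 of 10 tested, 0 under 0.05) had a gene body median of -0.16, with Pgls and Pgd at -0.19 and -0.32. Its 9 listed genes, X-linked ones included, summed to 254 to 269 TPM in Ctrl and 219 to 241 TPM in Kmt5b sKO, without overlap. In its TSS values 3 of 7 were lower and 0 higher without overlap, against 15.6% of all genes. There 1 of 7 had an unadjusted p under 0.05, against 11.0%. Gluconeogenesis (4 of 7 tested, 0 under 0.05) had a gene body median of -0.07, with Pck2 at -0.48.

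Genes that control glycolysis also gave no call in limma with all 6 libraries. The hypoxia response list (17 of 19 tested) had a TSS median of 0.25, with positive values in 14 and negative in 3. Groups did not overlap in 3 genes that were higher and 1 that was lower, against 15.6% of all genes. In that region 1 gene had an unadjusted p under 0.05, against 11.0%. In gene body values the list had a median of 0.07, with 2 under 0.05, against 15.9%, and fold changes from -0.46 to 2.01. Its most transcribed genes Ddit4, Vegfa and Egln2 stood at 0.08, -0.17 and -0.28 in gene body values. In gene body values edgeR called 1 gene of the list, against 6.01% of all genes, and DESeq2 1, against 10.4%. In both cases it was the prolyl hydroxylase gene Egln3. Limma without Ctrl replicate 2 called 1, against 2.10% of all genes: the peptide hormone gene Adm, at 3.58 TPM or less in every library. Egln3 and Adm are named after their values were seen. Regulators of glycolytic genes (10 of 11 tested, 0 under 0.05 in gene body values) had a gene body median of -0.09. Myc, a growth factor-responsive activator of glycolytic genes, stood at 0.00 (SE 0.20, adjusted p = 0.999). In TSS values 2 of 10 regulators had an unadjusted p under 0.05, against 11.0% of all genes. Without Ctrl replicate 2, 1 was called, against 3.28% of all genes. None of these medians is a test, and beside them the median over all genes was 0.02 in gene body values and 0.08 in TSS values.

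**Figure D5:**
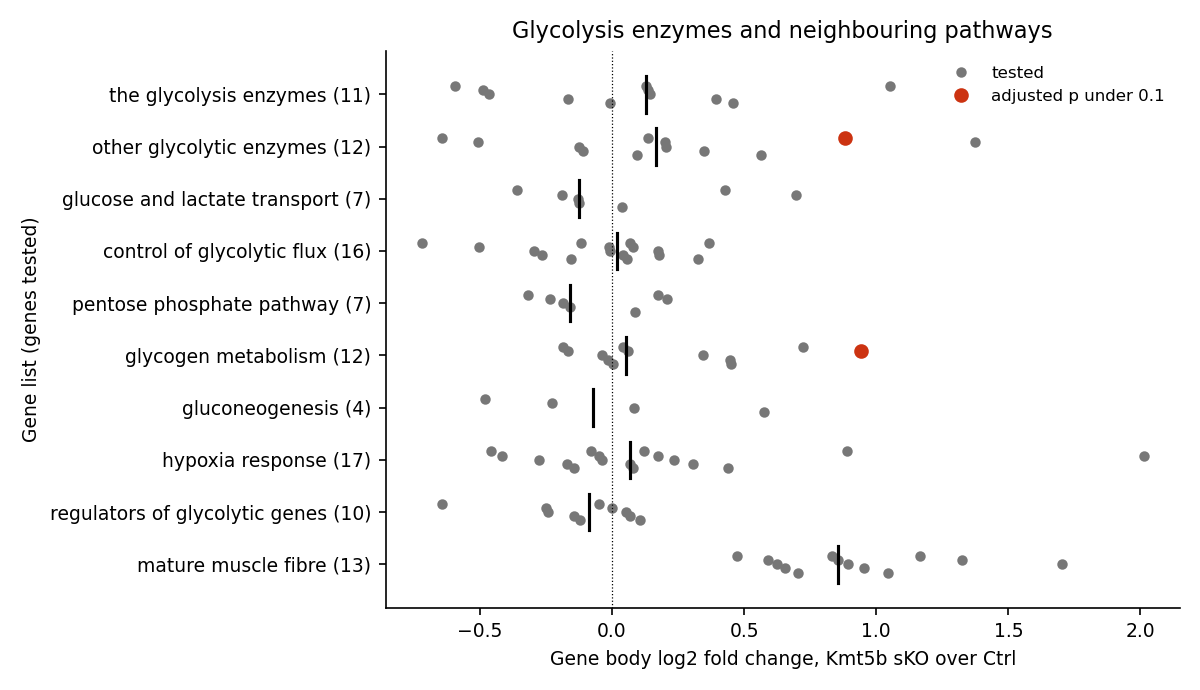
Gene body log2 fold change, Kmt5b sKO over Ctrl, of each tested gene (points) in the glycolysis enzymes, 8 neighbouring lists and mature muscle fibre markers, with the number tested in brackets and black bars for the medians. Red points, Eno3 and Gyg, were called at an adjusted p under 0.1, and the 13 fibre markers all lie above 0.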

How the data were processed

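PRO-seq was measured in 6 mouse libraries, 3 Ctrl and 3 Kmt5b sKO, grouped by the genotype in the labels. The authors trimmed reads with Trimmomatic 0.39 after FastQC 0.11.8, aligned them to GRCm38 (mm10) with STAR 2.6.1d keeping 1 random place for reads with several matches, and removed duplicates with Picard 2.18.16. The authors deposited, for 1 transcript per gene, a TSS value and a gene body value in TPM. The deposited TSS values carry TPM in their headers, step by the same amount for every gene and are called RPM here. With every TSS region 400 nt long, TPM would step equally too. Low values came out as whole reads in 100% of those checked (tolerance 0.1 read; for gene bodies, those up to 2000 nt), so reads were recovered for edgeR and DESeq2. Random placement can move reads between a gene and its copies, and removing duplicates lowers the strongest signals most.

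From these, log2(value + 0.5) was tested with limma 3.58.1 (R 4.3.3; trend, genotype only, two-sided) and Benjamini-Hochberg adjustment over 12451 genes, leaving out 472 genes on chromosome X and 6 on Y. The pausing index was tested without a pseudocount over 11698 genes above 0 in all libraries. Scripts were tested on simulated data. The text names all 10 glycolysis genes and, from fixed lists, each gene called and up to 3 with the highest gene body TPM, except some that are not reported here. The members and lists were chosen with earlier results of these data known. Where animals are not given per library, p-values measure the spread between these libraries. Alternatives were the pseudocount (0.1 and 1), no filter on low values, chromosomes X and Y, no trend, centred libraries, a replicate block, edgeR 4.0.16, DESeq2 1.42.0 and each library left out. Copies were found with minimap2 2.31. Promoters came from RefSeq on GRCm38.p6, and GENCODE M21 held 14528 of the 14546 identifiers.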

Additional observations from a re-analysis of the deposited data

How the results depend on the processing

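In TSS values 0 of the 11 entries were called under all alternatives that kept every library, and 0 to 1 when 1 library was left out. In gene body values 1 was called with centred libraries, against 4.03% of all genes, and 1 with edgeR, against 6.01% (both Pfkm). DESeq2 called 2 (Pfkm and Pfkp), against 10.4% of all genes, and 0 to 1 were called with 1 library left out. In the pausing index 0 were called throughout, and centring turned the log2 differences of Gpi1 and Ldha from just above 0 to -0.027 and -0.0028. With TSS values in place of gene body values, the Pfkm share differed by 11.9 percentage points and the Pfkl share by -5.18. With 1 library left out, the gene body Pfkm share still differed by 23.1 to 32.3 points. Over the 3 measures, 18 of 198 values of single entries changed sign with 1 library left out: in gene body values those of Gapdh (-0.12 to 0.090), Gpi1 (-0.11 to 0.28) and Ldha (-0.080 to 0.31), in TSS values those of Gpi1 (-0.031 to 0.32), Hk1 (-0.20 to 0.39), Hk2 (-0.79 to 0.017) and Ldha (-0.022 to 0.34), and in the pausing index those of Gpi1 (-0.13 to 0.27), Hk2 (-0.14 to 0.39), Pfkm (-0.12 to 0.32) and Pfkp (-0.63 to 0.12).

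Over all genes, TSS calls numbered 207, with 0 without the filter, 0 without the trend and 1 to 408 with 1 library left out. Gene body calls numbered 372, with 748 by edgeR, 1295 by DESeq2 and 0 to 836 with 1 library left out. Replicate numbers did not pair the libraries, since deviations of libraries with the same number correlated at -0.33 to -0.03, and a fit with the replicate number as a block called 0 entries and 0 genes in each measure, so that the calls of Eno3, Pgam2 and Gyg were lost, with an adjusted p of 0.32 for Pfkm in gene body values. TSS values of Pfkm, Hk1 and the Aldoa upstream locus rest on under 100 reads in every library.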

Other observations

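Pgk1, phosphoglycerate kinase, the step after Gapdh, lies on chromosome X and was outside the tests above. Its gene body values were 59.7, 38.0 and 43.0 TPM in the Ctrl libraries, against 41.5, 36.5 and 48.2 TPM in those of Kmt5b sKO, with overlapping groups and a log2 fold change of -0.14 (SE 0.20, limma adjusted p = 0.81 with chromosomes X and Y included). Its TSS values were 119, 83.9 and 133 RPM in the Ctrl libraries, against 66.2, 85.8 and 90.2 RPM in those of Kmt5b sKO, a log2 fold change of -0.45 (SE 0.23, adjusted p = 0.50). G6pdx, which opens the pentose phosphate pathway from the same chromosome, had gene body values of 25.4, 27.7 and 53.3 TPM in the Ctrl libraries, against 33.2, 22.4 and 25.7 TPM in those of Kmt5b sKO, Ctrl replicate 3 standing alone, with a log2 fold change of -0.32 (SE 0.29, adjusted p = 0.68).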
